A study of Mus musculus with 10 samples.

Results

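The 10 genes described here are Trp53, which encodes p53, and 9 genes that p53 can switch on and that act in cell death, of 21911 protein-coding genes in the annotation. They were read in ATAC-seq peak lists of Myc-CaP cells by taking every called region that overlapped a gene or the 10 kb on either side of it (GENCODE M21, mm10). ATAC-seq marks open chromatin, because a transposase inserts adapters where DNA is accessible. At these genes, 74 regions were found when the strong regions of all lists were merged, of 204075 over the genome. Strong means called at a q-value of 0.01 or less.

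Myc-CaP is an established prostate cancer line of the mouse, male and of strain FVB/NJ per the labels, from a tumor in which a MYC transgene was driven in prostate epithelium by a probasin promoter. All groups are this single line and share the transgene, and the p53 status of the line is not given in the labels. Cells were left untreated (Ctrl) or kept for 48 h with oxaliplatin at 2 µM (Oxali), interferon-γ at 1 ng/mL, which the labels give as 1000 pg (IFNγ), both of these together (Oxali + IFNγ), or cisplatin at 2 µM (Cispl). Each group has 2 libraries, which the authors pooled before calling peaks, so there is 1 list per group, no spread between replicates, and no test between groups. Intervals cover counting error only.

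p53 is a transcription factor that is stabilized when DNA is damaged and binds pairs of short half-sites near its target genes. Its death targets act on 2 routes. In the mitochondrial route, Bbc3 (PUMA) and Pmaip1 (NOXA) block survival proteins of the Bcl-2 family and Bax opens the outer membrane. In the receptor route, Fas and Tnfrsf10b (the receptor for the ligand TRAIL) carry death signals in from the cell surface. Aen, Ei24, Perp and Trp53inp1 encode a nuclease, a membrane protein of the endoplasmic reticulum, a protein of cell junctions and a regulator of autophagy and p53.

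The sequences below are shown because they lie at the summits of regions that the results turn on. They are the forward strand of mm10, 201 bases each, and capitals mark decamers that match the p53 half-site with its core C and G intact and at most 1 other mismatch. The set was chosen after the values were seen, and it holds the regions of Tnfrsf10b called in every list and higher with all platinum treatments, a gained region of Fas, a gained region of Aen, and the region with a paired p53 element.
Tnfrsf10b intron, chr14:69773752-69773952: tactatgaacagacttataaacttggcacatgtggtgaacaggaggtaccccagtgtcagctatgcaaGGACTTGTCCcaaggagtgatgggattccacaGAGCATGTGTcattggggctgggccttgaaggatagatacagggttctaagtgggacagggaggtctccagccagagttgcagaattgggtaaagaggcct
Tnfrsf10b upstream, chr14:69756776-69756976: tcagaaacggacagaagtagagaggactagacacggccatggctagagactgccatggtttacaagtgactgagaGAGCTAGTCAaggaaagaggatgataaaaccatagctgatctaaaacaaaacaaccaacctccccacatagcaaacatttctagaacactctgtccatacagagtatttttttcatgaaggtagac
Fas downstream, chr19:34328182-34328382: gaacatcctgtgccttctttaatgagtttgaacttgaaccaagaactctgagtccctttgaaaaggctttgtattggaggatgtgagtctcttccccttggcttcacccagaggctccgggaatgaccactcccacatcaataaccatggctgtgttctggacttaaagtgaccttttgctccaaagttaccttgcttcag
Aen intron, chr7:78904294-78904494: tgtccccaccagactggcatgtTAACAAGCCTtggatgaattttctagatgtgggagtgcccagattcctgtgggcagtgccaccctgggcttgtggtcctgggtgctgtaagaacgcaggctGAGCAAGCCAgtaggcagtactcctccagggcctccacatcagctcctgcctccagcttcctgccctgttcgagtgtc
Isg20 in the Aen window, chr7:78918747-78918947: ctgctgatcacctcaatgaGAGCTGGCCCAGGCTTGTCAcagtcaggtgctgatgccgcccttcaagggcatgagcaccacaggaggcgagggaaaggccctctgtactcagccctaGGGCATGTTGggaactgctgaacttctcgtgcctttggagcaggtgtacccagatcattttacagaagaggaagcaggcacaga

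A paired p53 element, 2 adjacent half-sites with at most 2 mismatches in all, lay within 100 bp of the summit in 1 of the 74 member regions, against 0.251% of all merged regions. That region lies in Isg20, 7638 bp beyond the end of Aen, was called in the Cispl list alone at a level of 18.2, and shows the element as the longest run of capitals in its sequence. The element starts at position 78918766, just before the called region, which starts at 78918768. With at most 1 mismatch no member region held a pair, against 0.0480% of all regions. Single half-sites were common: 33 of 74 member windows held one, against 41.6% of all windows of 201 bases. The Tnfrsf10b intron held 2 of them, with 22 bases in between. The AP-1 sequence TGANTCA was found in 13 of 74 member windows, against 21.3% of all windows, and the E-box CACGTG in 6 of 74, against 3.82%. All 6 E-box windows were among the 32 member regions at a start site (5.32% of all regions at start sites), and none was among the 42 away from one (3.53% of all such regions). The search was on both strands, since these sequences are their own reverse complements. A match is a description of the letters and not a sign of p53 binding.

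Accessibility is given as a depth-scaled level, which is the number of extended read ends covering the summit (the pileup) divided by the genome background of the list. The genome background is proportional to the number of reads and ran from 9.62 in IFNγ, the shallowest list, to 13.8 in Cispl. The Cispl list stops at a −log10 p of 2.99 where the others reach 2.00, so its weakest regions are missing. On this scale, regions called in all lists had a median ratio to Ctrl of 0.84 for IFNγ, 1.05 for Cispl, 1.11 for Oxali and 1.10 for Oxali + IFNγ, and the other scaling named below sets these medians to 1. Of the markers read as start-site regions, the prostate epithelial genes Hoxb13, Krt8 and Foxa1 were called in all 5 lists, while Krt18 was called in Ctrl and Oxali only and Epcam in IFNγ alone. Both fibroblast markers, Col1a1 and Pdgfra, were also called in all lists, the leukocyte marker Ptprc was called with the platinum treatments only, and the part of other cells was not tested.

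The members were open in untreated cells. The Ctrl list held 49 strong regions at the 10 genes, IFNγ 51, Oxali 59, Oxali + IFNγ 61 and Cispl 71. Of the 74 merged regions, 42 were called in all 5 lists, which is 56.8% of the member regions against 41.8% of all regions. The mean level of the strong member regions was 47.5 in Ctrl, 31.9 in IFNγ, 25.5 in Cispl, 33.1 in Oxali and 26.4 in Oxali + IFNγ. Strong regions also differed in number over the genome, from 113014 in IFNγ and 118154 in Ctrl to 153700 in Oxali, 169143 in Oxali + IFNγ and 171785 in Cispl. Per 1000 strong regions of a list, the members held 0.415 in Ctrl, 0.451 in IFNγ, 0.413 in Cispl, 0.384 in Oxali and 0.361 in Oxali + IFNγ. The mean level was lower than Ctrl in each treated list, over sets of regions that differ between lists. A change in all cells and a change in a share of the cells cannot be told apart in these bulk lists.

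The start sites of the members differed widely in Ctrl, as the plot of start-site levels shows. Those of Ei24 (level 130), Aen (124), Bbc3 (121), Perp (118) and Trp53inp1 (118) were the highest. Pmaip1 stood at 94.2, Trp53 at 70.7 and Bax at 62.6, and the median of 12022 start sites was 86.9. The death receptors were the least open, Tnfrsf10b at 33.4 and Fas at 20.2. In this order Ei24, Aen, Bbc3, Perp and Trp53inp1 could not be separated from their neighbors by the counting intervals, and neither could Trp53 from Bax.

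**Figure D1:**
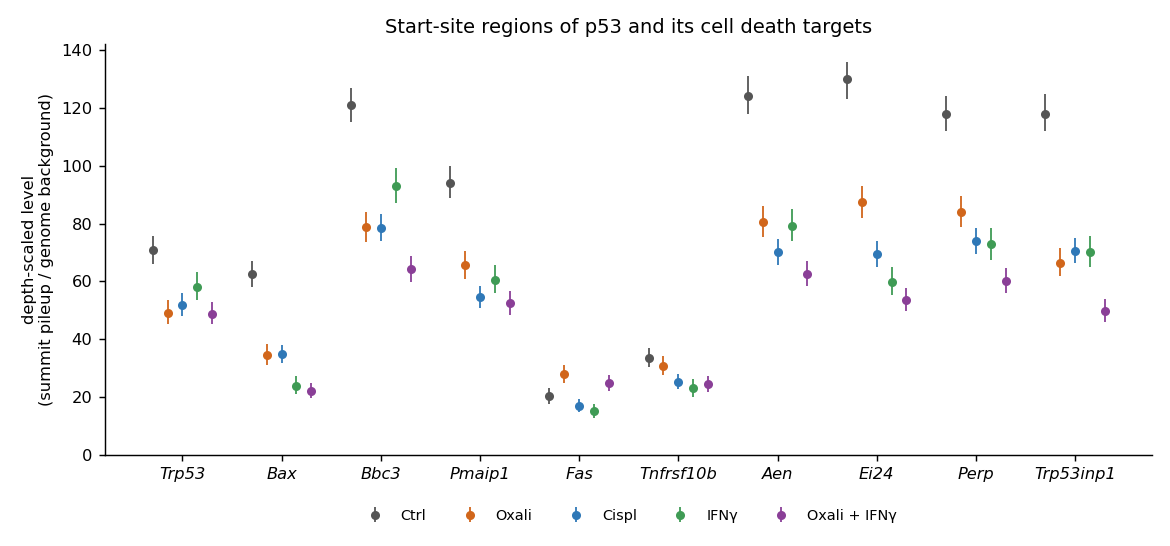
Depth-scaled level (summit pileup over genome background) of the start-site region of each member gene in the 5 pooled lists, with 95% exact Poisson intervals that cover counting error only. Ctrl is the highest list at 9 of the 10 genes, and Fas, at 20.2 in Ctrl and 27.8 in Oxali, is the exception.

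Start-site levels of the members were lower than Ctrl in nearly every treated list, and this was the pattern of start sites in general. The median ratio to Ctrl over the 10 start sites was 0.64 with IFNγ, 0.61 with Cispl, 0.68 with Oxali and 0.52 with Oxali + IFNγ. Over all start sites the medians were 0.69, 0.65, 0.74 and 0.56 in the same order. A ratio of at most 0.667 was found at 6 of 10 member start sites with IFNγ (42.6% of all start sites), 7 with Cispl (53.5%), 4 with Oxali (29.3%) and 7 with Oxali + IFNγ (65.2%). None reached 1.5. With the other scaling the counts in the same order were 2 (14.2% of all start sites), 7 (60.0%), 8 (48.5%) and 9 (71.2%). All 4 comparisons use the same Ctrl list.

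At Trp53 itself the start-site region, which also covers the start of the neighboring gene Wrap53 (chr11:69578833-69579664), had a level of 70.7 in Ctrl, 58.1 in IFNγ, 51.8 in Cispl, 49.2 in Oxali and 48.8 in Oxali + IFNγ. The 3 platinum lists were the lowest, and their counting intervals overlapped. A second region just upstream of the annotated 5′ end of Trp53 (chr11:69579717-69580684) had a level of 44.4 in Ctrl, 24.5 in IFNγ, 25.9 in Cispl, 27.1 in Oxali and 17.4 in Oxali + IFNγ. Its ratio to Ctrl was 0.58 (95% interval 0.51 to 0.67) with Cispl, 0.61 (0.53 to 0.70) with Oxali and 0.39 (0.33 to 0.46) with Oxali + IFNγ. Oxali + IFNγ was below Oxali there, at a ratio of 0.64 (0.54 to 0.77). One region was gained in each platinum list, inside Wrap53 and 4950 bp upstream of Trp53, at levels of 8.52 (Oxali), 9.08 (Cispl) and 10.2 (Oxali + IFNγ). It was not called in Ctrl or IFNγ.

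Among the genes of the mitochondrial route, Bax had the lowest start-site ratios of the set with IFNγ and with Oxali + IFNγ. Its start-site region (chr7:45466018-45467225, over the 5′ UTR) had a level of 62.6 in Ctrl, 23.9 in IFNγ, 34.7 in Cispl, 34.6 in Oxali and 22.2 in Oxali + IFNγ. Ctrl was the highest list, and on this scale both lists with IFNγ lay below Oxali and Cispl. The ratio to Ctrl was 0.38 (0.33 to 0.44) with IFNγ. With the other scaling the ratios were 0.45 (0.39 to 0.53) for IFNγ, 0.53 (0.47 to 0.59) for Cispl, 0.50 (0.44 to 0.56) for Oxali and 0.32 (0.28 to 0.37) for Oxali + IFNγ, so IFNγ was then not set apart from either single platinum list. The largest region in the Bax window (chr7:45459037-45460349) lies within 1 kb of starts of Ftl1, a ferritin gene, Gm10252 and Gm22133, and has its summit in Gm10252. Its level was 155 in Ctrl, 97.5 in IFNγ, 76.9 in Cispl, 96.3 in Oxali and 66.3 in Oxali + IFNγ. Bax lost 2 regions with Oxali and with Oxali + IFNγ, at Ctrl levels of 21.5 and 7.83, and gained 1 region in every treated list, beside the Ftl1 start, at levels of 16.4 (IFNγ), 18.6 (Cispl), 20.0 (Oxali) and 14.6 (Oxali + IFNγ).

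At Bbc3 most called regions lie within 1 kb of one of its 4 annotated start sites. Its start-site region, in an intron of the annotated gene (chr7:16313489-16314446), had a level of 121 in Ctrl, 93.0 in IFNγ, 78.5 in Cispl, 78.7 in Oxali and 64.1 in Oxali + IFNγ. Oxali and Cispl were level there, at a ratio of 1.00 (0.91 to 1.09). Bbc3 lost 2 regions with IFNγ, at Ctrl levels of 35.2 and 4.94, and none with a platinum drug, and gained 1 narrow intronic region each with Oxali (level 30.0), IFNγ (29.3) and Oxali + IFNγ (26.2).

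With the platinum treatments, Pmaip1 showed opposite directions at its start site and at regions upstream of it. Genome medians also split this way, at 0.65 (Cispl), 0.74 (Oxali) and 0.56 (Oxali + IFNγ) for start sites. Away from start sites they were 1.16, 1.22 and 1.22 in the same order. The start-site region of Pmaip1 (chr18:66457119-66459408) had a level of 94.2 in Ctrl, 60.6 in IFNγ, 54.5 in Cispl, 65.5 in Oxali and 52.4 in Oxali + IFNγ. A region 6043 bp upstream (chr18:66452090-66452643) had a level of 4.70 in Ctrl, 3.01 in IFNγ, 10.1 in Cispl, 11.4 in Oxali and 10.3 in Oxali + IFNγ. All 3 platinum lists were above Ctrl there, at ratios of 2.15 (1.57 to 2.98) for Cispl, 2.42 (1.76 to 3.37) for Oxali and 2.19 (1.60 to 3.05) for Oxali + IFNγ, and IFNγ was not. The next region, 5180 bp upstream, had ratios of 1.19 with IFNγ, 1.53 with Cispl, 1.95 with Oxali and 1.88 with Oxali + IFNγ. A more distant region, 9286 bp upstream (chr18:66448851-66449552), separated the platinum drugs, with a level of 13.3 in Ctrl, 9.98 in IFNγ, 10.0 in Cispl, 24.2 in Oxali and 18.2 in Oxali + IFNγ. Cispl gained 5 regions at Pmaip1, of which 4 lie beyond the end of the gene at levels of 2.40 to 3.92, and Oxali gained none. One of these 4 (chr18:66470843-66471012), at 2.76 in Cispl, was also called in Oxali at 2.13 and Oxali + IFNγ at 2.17, short of the q-value of 0.01. IFNγ gained 1, at a level of 9.87, inside the merged start-site region.

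The receptor gene Tnfrsf10b held the largest ratios to Ctrl of the whole set with Oxali and with Oxali + IFNγ, though not with Cispl. Its intronic region (chr14:69773399-69774550) had a pileup of 176 in Ctrl, 112 in IFNγ, 317 in Cispl, 518 in Oxali and 691 in Oxali + IFNγ, which is a level of 14.5, 11.6, 23.0, 46.0 and 53.5. The ratio to Ctrl was 0.80 (0.63 to 1.02) with IFNγ, 1.59 (1.32 to 1.92) with Cispl, 3.17 (2.67 to 3.78) with Oxali and 3.69 (3.13 to 4.38) with Oxali + IFNγ. With either list that had oxaliplatin, the intron was more open than the start site of the same gene, where the level was 33.4 in Ctrl, 23.1 in IFNγ, 25.1 in Cispl, 30.6 in Oxali and 24.3 in Oxali + IFNγ. A region 10596 bp upstream, inside 4930480K23Rik (chr14:69756320-69757734), had a level of 6.18 in Ctrl, 5.30 in IFNγ, 12.5 in Cispl, 19.0 in Oxali and 19.0 in Oxali + IFNγ. Here too Cispl lay between Ctrl and both lists with oxaliplatin. Its ratios to Ctrl were 2.02 (1.53 to 2.69) with Cispl, 3.07 (2.35 to 4.05) with Oxali and 3.07 (2.36 to 4.04) with Oxali + IFNγ. The other intronic region of Tnfrsf10b (chr14:69771185-69771872) stayed between 0.80 and 1.12 of Ctrl in every treated list. Gains at this gene were weak, the strongest (lowest q-value) being a region in a UTR exon (chr14:69783084-69783423) at 2.48 in Oxali and 3.34 in Cispl.

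Fas, the other death receptor, was the only member whose start site was more open than Ctrl in any list. Its start-site region (chr19:34290069-34291525) had a level of 20.2 in Ctrl, 15.1 in IFNγ, 16.9 in Cispl, 27.8 in Oxali and 24.7 in Oxali + IFNγ. The ratio to Ctrl was 1.38 (1.16 to 1.63) with Oxali and 1.22 (1.03 to 1.45) with Oxali + IFNγ, and 0.84 (0.69 to 1.00) with Cispl. With the other scaling Oxali stayed above Ctrl (1.24, 1.05 to 1.47), the interval for Oxali + IFNγ held 1 (1.11, 0.94 to 1.32), and Cispl lay below Ctrl (0.80, 0.66 to 0.96). Gains at this gene numbered 5 with Oxali, 4 with Oxali + IFNγ, 2 with Cispl and none with IFNγ. Part of this contrast is in how regions were split, since 2 of the 5 with Oxali overlap the same single Cispl gain, and 1 each with Oxali and Oxali + IFNγ lies inside the merged start-site region that was called in Ctrl. A gained region that begins shortly beyond the end of Fas (chr19:34328042-34328631) had a level of 5.23 in Oxali, 8.06 in Cispl and 6.20 in Oxali + IFNγ, and one 5976 bp upstream (chr19:34284382-34284796) had 5.59, 5.45 and 4.73. Neither was called in Ctrl or IFNγ, and both lay over 5 kb from the nearest Ctrl region.

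**Figure D2:**
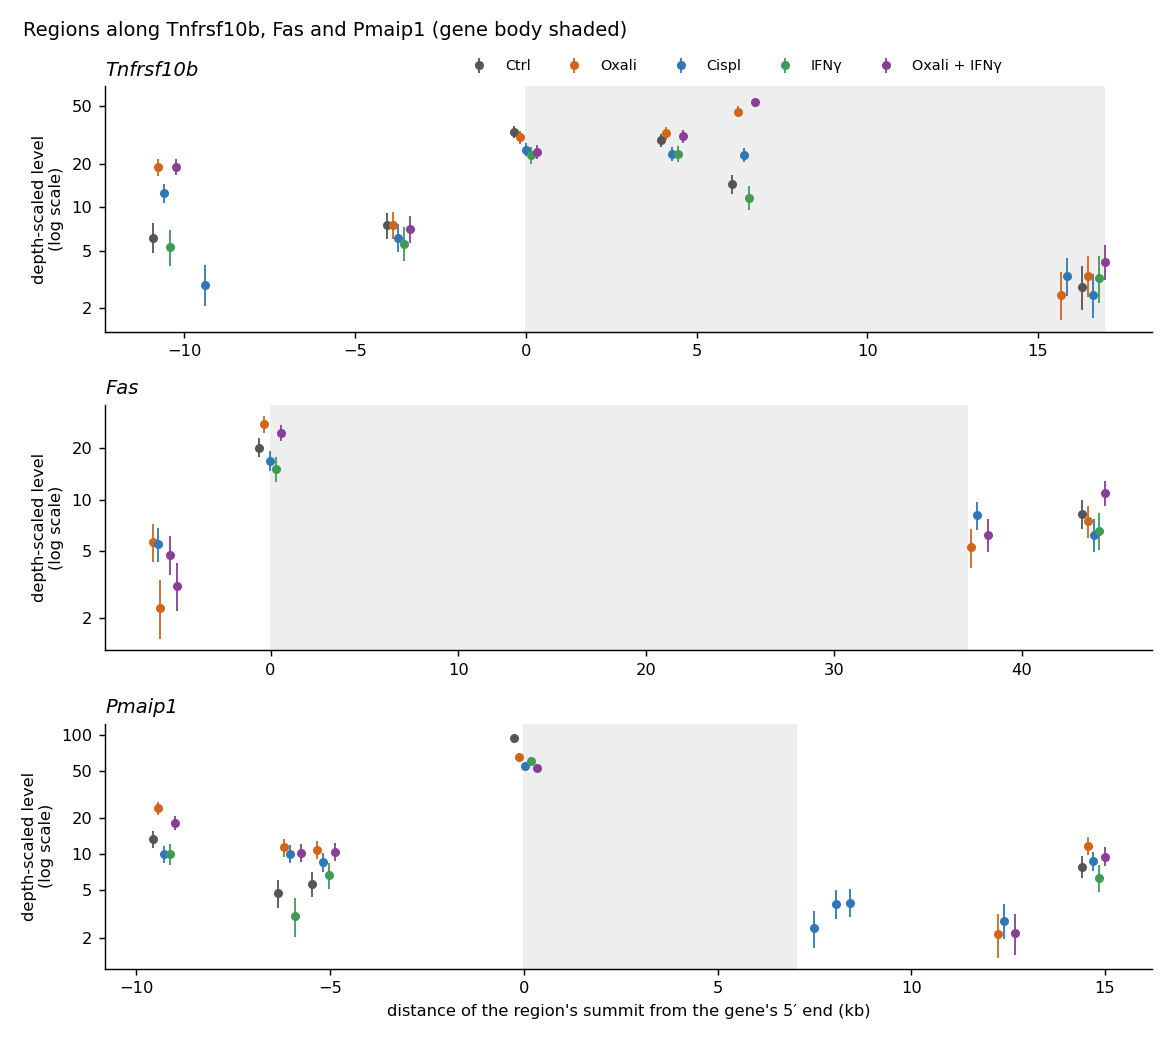
Depth-scaled level (log axis) of each called region along Tnfrsf10b, Fas and Pmaip1, against the distance of its summit from the 5′ end of the gene in kb, with 95% exact Poisson intervals; a missing point means the region was not called in that list, and points of a region are set slightly apart. The Tnfrsf10b intron stands at 46.0 in Oxali and 53.5 in Oxali + IFNγ against 14.5 in Ctrl.

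Of the remaining members, Aen gained the most regions with Cispl. Its start-site region (chr7:78895342-78896794) had a level of 124 in Ctrl, 79.3 in IFNγ, 70.1 in Cispl, 80.6 in Oxali and 62.5 in Oxali + IFNγ. Cispl gained 6 regions at this gene, Oxali 2 and Oxali + IFNγ 3, and IFNγ gained none. One of them, in an intron (chr7:78904004-78904552), was gained in all 3 platinum lists at levels of 7.45 (Oxali), 7.12 (Cispl) and 5.42 (Oxali + IFNγ), and its summit sequence is shown above. A region in the 3′ UTR exon, at a level of 28.8 in Ctrl, was lost with Oxali, IFNγ and Oxali + IFNγ and was called in Cispl at 30.2.

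Ei24 had a start-site level of 130 in Ctrl, 59.9 in IFNγ, 69.5 in Cispl, 87.4 in Oxali and 53.5 in Oxali + IFNγ. It gained an intronic region in all 3 platinum lists, at levels of 5.23 (Oxali), 3.85 (Cispl) and 4.42 (Oxali + IFNγ). A stronger gain of Cispl, at 6.03, lies in Gm26787 beyond the end of Ei24 (chr9:36774417-36774905), and the gain with IFNγ, at 5.40, lies inside the merged start-site region. At Perp the start site had a level of 118 in Ctrl, 72.8 in IFNγ, 73.9 in Cispl, 84.0 in Oxali and 60.2 in Oxali + IFNγ. An intronic region of Perp (chr10:18846537-18846928) had a level of 17.2 in Ctrl, 20.1 in IFNγ, 23.8 in Cispl, 24.7 in Oxali and 29.4 in Oxali + IFNγ. The interval of its ratio to Ctrl lay above 1 in the platinum lists and held 1 with IFNγ (1.17, 0.95 to 1.42), but with the other scaling it lay above 1 with IFNγ as well (1.39, 1.13 to 1.69). Perp gained 3 regions with IFNγ, 2 with Cispl and 2 with Oxali + IFNγ, and none with Oxali. The strongest with IFNγ and with Cispl was intronic (chr10:18850221-18850457), at 7.38 in IFNγ and 5.52 in Cispl. This region was also gained with Oxali + IFNγ, at 5.35. The gain of lowest q-value with Oxali + IFNγ was a region beyond the end of the gene (chr10:18860909-18861127) at 3.80. Trp53inp1 had a start-site level of 118 in Ctrl, 70.2 in IFNγ, 70.5 in Cispl, 66.4 in Oxali and 49.8 in Oxali + IFNγ. With the other scaling its ratios to Ctrl were 0.71 (0.64 to 0.77) with IFNγ, 0.57 (0.52 to 0.62) with Cispl, 0.51 (0.46 to 0.55) with Oxali and 0.38 (0.35 to 0.42) with Oxali + IFNγ. Trp53inp1 gained 1 region with Oxali, 7672 bp upstream at a level of 5.32, and 1 with Oxali + IFNγ, intronic at 8.29 (chr4:11159605-11159761). The gain with Oxali lies inside a merged region that was called in Ctrl, 109 bp from the nearest Ctrl region.

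Over all 10 genes, gains numbered 7 with IFNγ, 22 with Cispl, 14 with Oxali and 15 with Oxali + IFNγ. A gain is a strong region of the treated list with no Ctrl region, strong or weak, under any of its bases. These make up 23.7% of the strong member regions of the Oxali list against 32.5% of all strong regions of that list. For Cispl the shares were 31.0% and 37.3%, for IFNγ 13.7% and 12.9%, and for Oxali + IFNγ 24.6% and 38.4%. The difference between these shares was not tested. Of the member regions, 32 of 74 lay within 1 kb of a start site, against 32768 of 204075 merged regions. Genes with a gained region numbered 5 of 10 with IFNγ (35.1% of all protein-coding genes), 8 with Cispl (70.2%), 8 with Oxali (62.3%) and 8 with Oxali + IFNγ (68.2%). Lost regions were 3 of 49 with IFNγ (15.8% over the genome), 0 with Cispl (5.90%), 3 with Oxali (9.11%) and 3 with Oxali + IFNγ (7.59%). Several gains lie at the edge of a large Ctrl region, and 2 of the 7 with IFNγ, 17 of the 22 with Cispl, 8 of the 14 with Oxali and 12 of the 15 with Oxali + IFNγ had no Ctrl region within 500 bp. Gains inside a merged region that was called in Ctrl numbered 3 with IFNγ, 2 with Cispl, 3 with Oxali and 1 with Oxali + IFNγ.

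**Figure D3:**
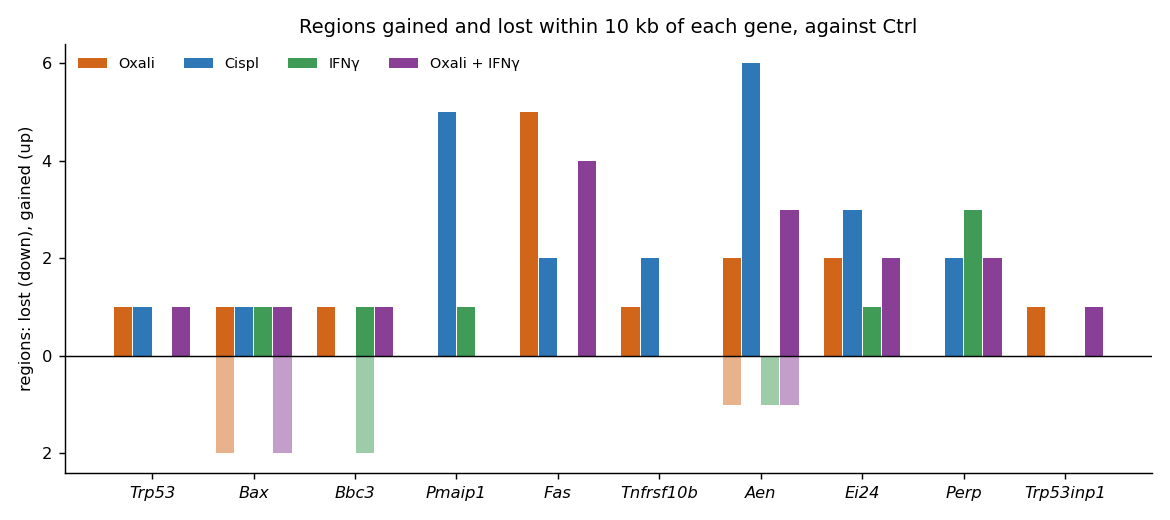
Number of regions gained (bars upward) and lost (bars downward, paler) within 10 kb of each member gene in each treated list against Ctrl. Cispl has 6 gains at Aen and 5 at Pmaip1, Oxali has 5 at Fas, and losses are limited to Bax, Bbc3 and Aen.

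Levels could be compared with Ctrl at 47 member regions for Cispl and at 44 for each other treatment. A ratio of at least 1.5 was found at 0 of them with IFNγ (4.26% of all regions called in both lists), 4 with Cispl (25.5%), 6 with Oxali (29.2%) and 5 with Oxali + IFNγ (30.4%). A ratio of at most 0.667 was found at 9 with IFNγ (18.4%), 14 with Cispl (12.0%), 6 with Oxali (7.68%) and 15 with Oxali + IFNγ (14.3%). The member median was 0.79, 0.81, 0.91 and 0.76 in this order, where that of all regions was 0.85, 1.09, 1.14 and 1.13. Regions away from start sites had member medians of 0.80 (IFNγ), 1.05 (Cispl), 1.11 (Oxali) and 1.08 (Oxali + IFNγ), against 0.89, 1.16, 1.22 and 1.22 over the genome. They held every member region past 1.5. These were 4 of 23 with Cispl (28.9% of all regions away from start sites), 6 of 22 with Oxali (33.2%) and 5 of 22 with Oxali + IFNγ (34.5%). At most 0.667 were 1 of 21 with IFNγ (14.8%), 2 with Cispl (6.15%), 0 with Oxali (4.55%) and 3 with Oxali + IFNγ (6.73%). Start sites make up more of the member regions than of all regions, so the shares over all regions mix the classes differently. With the other scaling, over all compared member regions, 1 was higher and 3 lower with IFNγ (11.6% and 6.30% of all regions). Counts were 3 higher and 15 lower with Cispl (22.7% and 14.5%) and 5 higher and 15 lower with Oxali (23.2% and 13.7%). With Oxali + IFNγ they were 5 higher and 22 lower (24.9% and 18.8%).

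**Figure D4:**
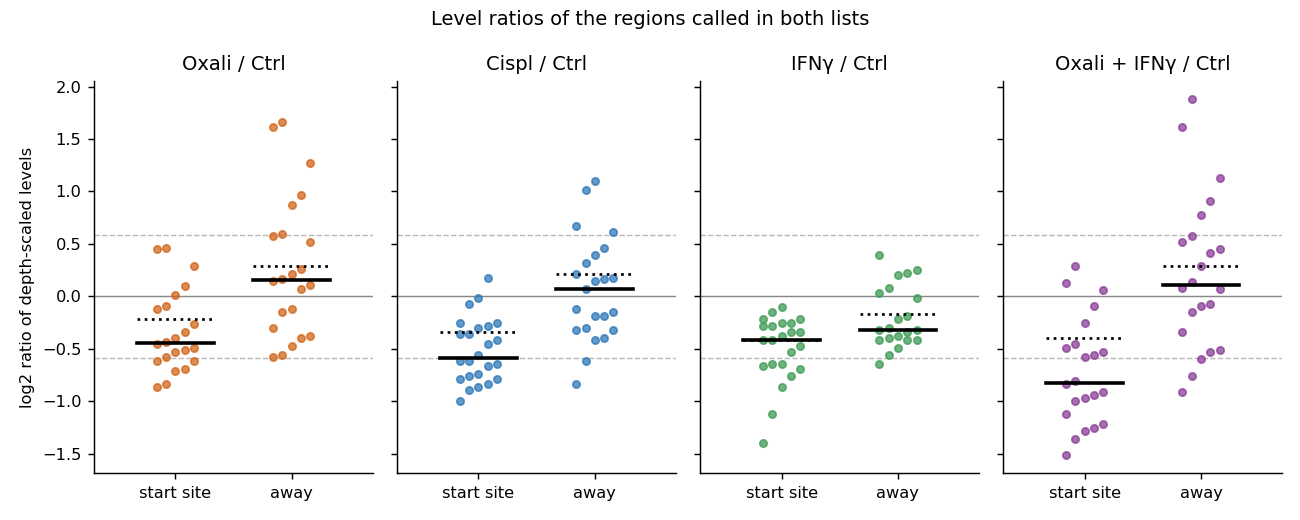
Log2 ratio of the depth-scaled level to Ctrl for member regions within 1 kb of any start site and away from start sites, 1 point per region called in both lists. Black lines are member medians, dotted lines the medians of all such regions, and dashed lines mark ratios of 1.5 and 0.667; the points past 1.5 all lie away from start sites.

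Some regions moved alike with all 3 platinum treatments. Of the 42 member regions called in every list, 4 had a ratio of at least 1.5 with Oxali, Cispl and Oxali + IFNγ (9.52%, against 16.1% of all such regions). They are the 2 upstream regions of Pmaip1 and the 2 regions of Tnfrsf10b described above. With the other scaling 3 were left (against 12.98% of all such regions), since the nearer Pmaip1 region lay below 1.5 with Cispl. A ratio of at most 0.667 in all 3 was found at 6 (14.3%, against 5.37%), and at 12 with the other scaling (against 9.25%). The 6 are the start sites of Bax, Bbc3, Aen and Trp53inp1, the region near the Ftl1 start and the second region of Trp53. All 6 lie at start sites, which were lower over the genome as well. A further 6 of the 74 regions were called in the 3 platinum lists and in neither Ctrl nor IFNγ (8.11%, against 11.5% of all merged regions): 2 at Fas and 1 each at Trp53, Pmaip1, Aen and Ei24.

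Cisplatin and oxaliplatin, platinum compounds that differ in their carrier and leaving ligands, were compared at the same dose and time over 53 member regions called in both lists. The member median of the Cispl to Oxali ratio was 0.88, against 0.93 for all regions. Cispl was higher by at least 1.5 at 1 region (6.96% of all regions), the gained region beyond Fas, at a ratio of 1.54 (1.11 to 2.15). It was lower, at 0.667 or less, at 4 (12.2%). These were the distant Pmaip1 region at 0.41 (0.33 to 0.51), the Tnfrsf10b intron at 0.50 (0.43 to 0.58), the Fas start site at 0.61 (0.51 to 0.72) and the upstream Tnfrsf10b region at 0.66 (0.54 to 0.81). Over the member start sites the median was 0.87, the same as over all start sites. The interval held 1 at Bax (1.00, 0.88 to 1.15), Bbc3 (1.00, 0.91 to 1.09), Trp53 (1.05, 0.94 to 1.18) and Trp53inp1 (1.06, 0.96 to 1.17). It lay below 1 at Fas and at Ei24 (0.79, 0.73 to 0.87), Tnfrsf10b (0.82, 0.71 to 0.96), Pmaip1 (0.83, 0.75 to 0.92), Aen (0.87, 0.79 to 0.95) and Perp (0.88, 0.80 to 0.96). This sorting moved with the other scaling, where the intervals at Tnfrsf10b (0.74 to 1.01), Aen (0.84 to 1.01) and Perp (0.85 to 1.02) held 1 and that at Trp53inp1 (1.02 to 1.23) lay above it. The pooled lists hold no values per replicate, so these differences were not tested, and with the other scaling 2 regions were higher (9.08% of all regions) and 3 lower (9.41%).

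Oxali + IFNγ was compared with Oxali to show what IFNγ added. Over 54 member regions called in both lists the median ratio was 0.85, against 0.99 for all regions. A ratio of at least 1.5 was found at 1 region (4.02% of all regions), beyond the end of Perp (chr10:18860909-18861127), at 1.78 (1.07 to 3.04) and a low level of 3.80. A ratio of at most 0.667 was found at 7 (4.53%). The Bax start site (0.64, 0.55 to 0.75), the Ei24 start site (0.61, 0.56 to 0.68) and the second Trp53 region (0.64, 0.54 to 0.77) were among them. So were regions in Bbc3 introns near its start sites, at 0.62 (0.56 to 0.69), 0.63 (0.56 to 0.71) and 0.66 (0.59 to 0.74). Away from start sites, 1 of 28 member regions was that low (2.62% of all such regions), upstream of Bax. Among start-site regions that stand for a gene, 2 of the members were that low (22.2% of all start sites). The Tnfrsf10b intron was slightly above oxaliplatin alone, at 1.17 (1.04 to 1.31), and the upstream Tnfrsf10b region was level with it, at 1.00 (0.83 to 1.21). The median over member start sites was 0.78, and that over all start sites 0.77.

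Other genes of the pathway were counted in the same way. Of 21 further p53 targets and regulators of arrest, repair and feedback, gains numbered 10 with IFNγ, 45 with Cispl, 23 with Oxali and 27 with Oxali + IFNγ, which is 7.46%, 25.9%, 15.0% and 17.2% of their strong regions in those lists. Losses were 17, 10, 12 and 8 of 146 Ctrl regions, or 11.6%, 6.85%, 8.22% and 5.48%. Their start-site medians were 0.64, 0.58, 0.65 and 0.49, and none of their start sites reached 1.5. Of 22 genes of the death machinery that were not chosen as p53 targets, gains were 11, 49, 25 and 38 in the same order, or 7.69%, 25.5%, 15.5% and 22.1%, and losses 16, 3, 8 and 8 of 145, or 11.0%, 2.07%, 5.52% and 5.52%. The shares over the genome are those given with the gains and losses of the members. Start-site medians there were 0.70, 0.65, 0.73 and 0.56, and 1 start site of this list reached 1.5 with Cispl (1.82), Oxali (2.67) and Oxali + IFNγ (2.81).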

How the data were processed

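The authors trimmed reads with cutadapt, aligned them to mm10 with Bowtie2 2.2.8, and discarded poorly mapped, duplicate and mitochondrial reads. Both libraries of a group were then merged, MACS2 2.1.0 was run on the merged reads with no control library, and blacklisted peaks were dropped. The deposited fold is a ratio of pileup plus 1 to local background plus 1, and the deposited −log10 p and −log10 q come from a Poisson test of the same values.

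From the fold and p, the pileup and background were solved for every peak (100% recovered in each list), a step tested on simulated data. The depth of the lists was 79.3% to 113% of that of Ctrl. Summits of one interval were counted as 1 region. Gained and lost regions needed a q-value of at most 0.01 and no 1-bp overlap with the other list. Levels were the highest pileup in a merged region over the genome background of its list. Intervals are 95% exact Poisson for levels and exact conditional binomial for ratios. A start-site region lay within 1 kb of an annotated start (GENCODE M21, GRCm38), and the highest in Ctrl stands for the gene. The alternatives were a 5-kb window, the gene body alone, a stricter q-value, another overlap, another scaling and other element rules.

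The member genes and the gene lists were chosen with earlier results of these data known. For each member the start-site region, the gained and lost regions of lowest q-value per treatment, and regions called in every list and past a ratio of 1.5 with all 3 platinum treatments were named. Other regions were named after their values were seen. Counts per replicate were not analysed here, and some markers are not reported here. Analyses used Python 3.11.15, numpy 2.4.6, pandas 2.3.3 and scipy 1.17.1.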

Additional observations from a re-analysis of the deposited data

How the results depend on the processing

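Of 120 recomputed values for the main comparisons, 99 stayed within 1.5 times the main count or within the interval of the main ratio, and 21 moved beyond that. These ratios are medians, and their interval was taken over the member regions, not from counting error. No median ratio changed direction, and the counts have no direction to change. With the gene body alone, without the 10 kb around it, regions called were 24 in Ctrl, 24 in IFNγ, 31 in Cispl, 29 in Oxali and 31 in Oxali + IFNγ. Gains were then 3, 8, 6 and 8 in the treated lists in the same order, and losses were 2, 0, 1 and 1. The median ratios with the gene body alone were 0.74 for Oxali, 0.71 for Cispl and 0.56 for Oxali + IFNγ against Ctrl, and 0.79 for Oxali + IFNγ against Oxali (the cause was not tested). Without gains that had a Ctrl region within 500 bp, 2 were left with IFNγ, 17 with Cispl, 8 with Oxali and 12 with Oxali + IFNγ. Scaled so that regions common to all lists had a median ratio of 1, the IFNγ median was 0.94. The p53 element was found in 0 member regions with at most 1 mismatch, in 0 with half-sites up to 13 bp apart and at most 1 mismatch, and in 2 (2.70%, against 0.693% of all regions) when sought anywhere in the region, a search added after the data were seen. These 2 are the start-site regions of Bax and Pmaip1, and the element in Isg20 is not among them because it begins before its called region. Among 58 recomputed ratios of single regions 35 stayed within their counting interval and 23 moved beyond it, all under the other scaling. Part of these scaling ratios and the start-site region taken nearest to the annotated 5′ end were added after the data were seen.

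No paired analysis was possible because each peak list used here was called on the pooled libraries of its group, and for the same reason no library could be left out. Reads per library were not analysed here. Regions near the calling threshold are the least certain, and a region absent from a list may lie just under it. The threshold is a pileup of about 18 to 23 at the genome background, and it is higher where the local background is higher. A Cispl gain at Pmaip1 had a pileup of 113 over a local background of 77.4, at a −log10 q of only 2.66.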
